A study of Mus musculus with 12 samples.

Results

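The interneuron genes described here are 10 of the 32546 genes in a table of UMI counts from the mouse hippocampus, and they were taken by symbol: Gad1, Gad2, Slc32a1, Sst, Pvalb, Vip, Npy, Cck, Reln and Lhx6. Each symbol matched 1 row. The counts came from photo-isolation chemistry (PIC), in which cDNA is made across a tissue section with a caged primer and only light-exposed cDNA can be amplified, so that the transcriptome of a chosen area is read. The sections came from the hippocampus of male ICR mice (Slc:ICR) aged 8 weeks, and the areas CA1, CA3 and dentate gyrus (DG) were irradiated in 4 histological conditions. FF-HCl and FF-TE denote fresh-frozen sections that were treated for permeabilization either for 5 min in 0.1 N HCl or for 1 h in TE at 70 °C. FixFrozen-TE and Paraffin-TE denote tissue fixed with 4% PFA, cut frozen or after paraffin embedding, and permeabilized with TE. The paper's protocol also puts 4% PFA on all sections for 10 min before permeabilization, and it does not exempt fresh-frozen ones. Each area and condition was 1 library with 4 pooled, barcoded replicates, which gives 12 libraries and 48 replicates. Within a condition, area and library cannot be told apart. Sample titles and the paper name the third area CA3, whereas the series text names it CA2; it is called CA3 here.

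Hippocampal interneurons release GABA onto pyramidal and granule cells. Gad1 and Gad2 encode the enzymes that make GABA, and Slc32a1 encodes the transporter that loads it into synaptic vesicles, so these genes are shared by most interneurons. Sst, Vip, Npy and Cck encode neuropeptides, Pvalb a calcium-binding protein of fast-spiking cells, Reln a secreted matrix protein, and Lhx6 a transcription factor of interneurons born in the medial ganglionic eminence. These genes divide interneurons into classes. Some are not exclusive to interneurons: Cck is also transcribed in pyramidal cells, and Reln in Cajal-Retzius cells.

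Replicate totals ranged from 127253 to 933756 UMIs in FF-HCl, from 294445 to 1111804 in FF-TE, from 52800 to 307145 in FixFrozen-TE and from 35932 to 223055 in Paraffin-TE. Levels are given as CPM, the count of a gene scaled to the UMI total of its replicate. A count of 0 allows up to 3 counts, which is 2.70 to 23.6 CPM in fresh-frozen replicates and 9.77 to 83.5 CPM in fixed replicates, for counting error only. In 12 of 12 libraries the replicate numbered 4 was the shallowest. The area labels were checked with lists of 3 genes for CA1 (Wfs1, Pou3f1, Fibcd1) and of 4 genes each for CA3 (Bok, Iyd, Coch, Cpne4) and DG granule cells (Prox1, Dsp, C1ql2, Pdzd2). In each condition, the summed CPM of each list was higher in every replicate of its own area than in every replicate of the other areas. The CA1 list reached 144 to 1005 CPM in CA1 replicates and 0 to 264 CPM elsewhere. The CA3 list stood at 272 to 606 CPM in CA3 and at 0 to 376 CPM elsewhere, and the DG list at 569 to 1712 CPM in DG and at 55.3 to 473 CPM elsewhere. Of the 4 CA2 genes (Amigo2, Rgs14, Pcp4, Map3k15), 3 were tested and 0 were called between CA1 and CA3 by edgeR over the libraries, with 2 at an unadjusted p under 0.05. Their summed level in FixFrozen-TE was 203 to 384 CPM in CA1, 473 to 1009 CPM in CA3 and 1118 to 1524 CPM in DG. In the other conditions CA1 and CA3 overlapped. The median of this list was highest in DG in each condition.

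By GENCODE M21 (GRCm38), Gad1 lies on chromosome 2 at 70553072 to 70602014, Gad2 at 22622205 to 22693874 and Slc32a1 at 158610767 to 158615748, all on the plus strand, and Lhx6 at 36081953 to 36105408 on the minus strand of the same chromosome. Sst lies on chromosome 16 at 23889573 to 23890958 (minus), Pvalb on 15 at 78191114 to 78206400 (minus), Vip on 10 at 5639218 to 5647617 (plus), Npy on 6 at 49822710 to 49829507 (plus), Cck on 9 at 121489824 to 121495694 (minus) and Reln on 5 at 21884454 to 22344702 (minus). Other annotated genes overlap 5 of the 10, and 3 of these (Gad1, Slc32a1 and Reln) have an antisense partner. The assignment of reads was run without a strand option, so reads of such partners cannot be told apart where exons coincide. The antisense partners themselves held 6 UMIs beside Gad1, 0 beside Slc32a1 and 8 beside Reln over all 48 replicates.

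Sst has the promoter element in which the response of neuropeptide genes to cyclic AMP was first worked out, and its window shows the palindrome TGACGTCA (in capitals) that CREB binds. The stretch is chr16:23890874-23890903 on the minus strand, from RefSeq promoter windows of 300 bases on GRCm38.p6, and the motif ends 40 bases before the RefSeq start. The GENCODE model of Sst begins further upstream and covers it.
Sst: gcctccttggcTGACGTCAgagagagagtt
All 10 members matched, with 13 windows. The motif, read on both strands, was in 1 of the 13 windows, and in 588 of 32851 windows of all genes (1.79%). The match is a description of the letters alone, and no measurement here bears on its use.

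Over the 12 libraries, 5 of the 7 genes of interneuron classes and 1 of the 3 genes of GABA synthesis and transport were called between areas. These counts take any of the 3 comparisons in either direction. The share of all genes so called was not computed, and the shares below are per comparison and direction. Sst, Pvalb, Vip and Cck were higher in CA1 than in DG. Sst and Vip were also higher in CA1 than in CA3, Cck was higher in CA3 than in DG, and Gad1 and Reln were lower in CA3 than in DG. Gad2, Slc32a1, Npy and Lhx6 were called in none of the 3 comparisons. Because each area is bulk tissue, fewer cells of a type and less RNA per cell cannot be told apart. The test was edgeR's quasi-likelihood test on UMIs summed per library with histological condition as a covariate (n = 4 libraries per area), with an adjusted p under 0.05 taken as a call. Between CA1 and DG it called 4 of 10 members as higher and 0 as lower, where 4.64% of the 18884 genes tested were called higher and 5.52% lower. Between CA3 and DG it called 1 higher and 2 lower, where 3.88% and 4.30% of all genes were called. Between CA1 and CA3 it called 2 higher and 0 lower, where 2.05% and 2.61% of all genes were called. The median log2 fold change of the 10 members was 0.28, 0.11 and 0.32 in the 3 comparisons, against 0.00, -0.01 and 0.02 over all genes. Myelin genes moved with these comparisons. All 4 oligodendrocyte markers (Mbp, Mog, Mag, Cnp) were higher in CA1 and in CA3 than in DG, with a summed level of 1984 to 8715 CPM in CA1, 568 to 7697 CPM in CA3 and 581 to 5051 CPM in DG. Of the 5 astrocyte markers, 3 (Aqp4, Slc1a3, Gja1) were lower in CA1 and in CA3 than in DG, with summed levels of 351 to 2682 CPM in CA1, 303 to 2362 CPM in CA3 and 611 to 4558 CPM in DG. The part of these in the result was not tested.

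**Figure D1:**
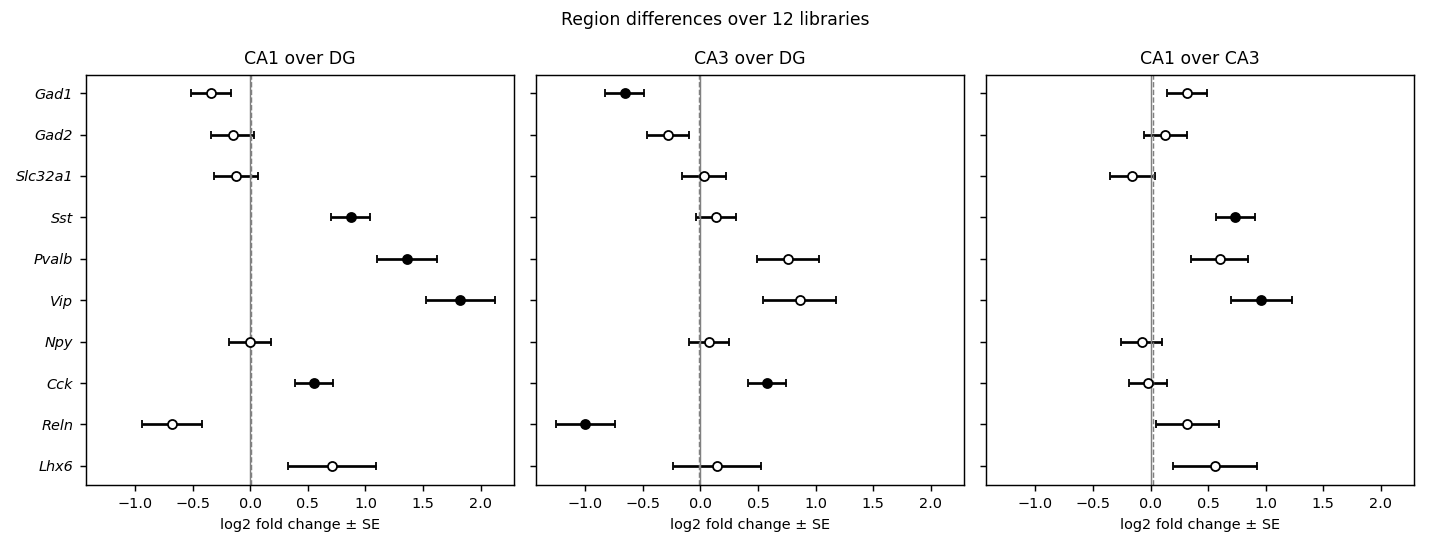
Differences between areas for the 10 interneuron genes over 12 libraries, with the first area over the second. The horizontal axis is the log2 fold change, points are estimates with bars of ± SE, filled points passed the test, and the dashed line is the median of all genes; Vip reached 1.82 in CA1 over DG and Gad1 -0.66 in CA3 over DG.

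Sst encodes somatostatin, the peptide of interneurons that contact the dendrites of principal cells. Its mean in CA1 was 419.9 ± 223 CPM in FF-HCl, 432 ± 153 in FF-TE, 409 ± 115 in FixFrozen-TE and 406 ± 138 in Paraffin-TE (SD, n = 4 replicates), and in DG it was 252 ± 57.4, 161 ± 29.7, 162 ± 48.6 and 314 ± 42.5 CPM in the same order. CA1 was above DG in 4 of 4 conditions, and the replicates did not overlap in FF-TE and FixFrozen-TE. Over the libraries CA1 over DG was on the log2 scale 0.87 ± 0.17 (SE; adjusted p = 1.5e-05), and of CA1 over CA3 0.74 ± 0.17 (adjusted p = 0.00077). The latter was no longer called without the FixFrozen-TE libraries, at 0.53 (adjusted p = 0.085). In FixFrozen-TE, where CA1 and CA3 differed most, Sst stood at 391, 420.2, 273 and 553 CPM in CA1 and at 61.1, 141, 164 and 208 CPM in CA3. All CA1 replicates were above all CA3 replicates there.

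Vip encodes vasoactive intestinal peptide, which marks interneurons that mainly contact other interneurons. In FF-HCl it stood at 21.9, 32.8, 32.2 and 39.3 CPM in CA1, at 15.0, 8.57, 7.41 and 20.5 CPM in CA3 and at 2.84, 4.65, 12.7 and 0 CPM in DG. In FF-TE the values were 47.1, 33.1, 27.0 and 37.8 CPM in CA1, 19.2, 24.3, 11.8 and 21.5 CPM in CA3 and 6.10, 6.82, 11.7 and 6.79 CPM in DG. In both fresh-frozen conditions every CA1 replicate was above every CA3 and DG replicate. These levels rest on 69 and 97 UMIs in CA1 and 14 and 16 UMIs in DG. The fixed conditions overlapped, with 8.53 to 92.2 CPM in CA1 and 13.0 to 37.3 CPM in DG in FixFrozen-TE, and 0 to 84.8 and 6.78 to 17.9 CPM in Paraffin-TE. Over the libraries Vip had the highest log2 fold change of the members in CA1 over DG, 1.82 ± 0.30 (adjusted p = 6.0e-08), and 0.96 ± 0.27 in CA1 over CA3 (adjusted p = 0.010). The latter was no longer called without the FF-HCl libraries (0.83, adjusted p = 0.23), without the FF-TE libraries (0.99, adjusted p = 0.21) or with DESeq2 (0.97, adjusted p = 0.052). In CA3 over DG the value was 0.86 ± 0.31 (adjusted p = 0.068).

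Pvalb encodes parvalbumin of fast-spiking basket and axo-axonic cells. In FF-TE it stood at 81.5, 57.2, 63.5 and 54.0 CPM in CA1, at 50.1, 33.3, 25.7 and 43.0 CPM in CA3 and at 22.4, 15.3, 38.6 and 3.40 CPM in DG. All CA1 replicates were above all others, whereas CA3 and DG overlapped. In Paraffin-TE the CA1 replicates, at 42.7, 72.0, 56.5 and 83.5 CPM, were again above all CA3 replicates (8.27 to 25.1 CPM) and all DG replicates (15.6 to 33.9 CPM), but on 13, 5 and 14 UMIs in all. In FF-HCl the 3 areas overlapped, with means of 19.8 ± 11.6, 19.3 ± 6.65 and 14.2 ± 6.28 CPM in CA1, CA3 and DG (SD, n = 4). Over the libraries CA1 over DG was on the log2 scale 1.36 ± 0.26 (adjusted p = 8.5e-06), that of CA3 over DG 0.76 ± 0.27 (adjusted p = 0.054) and that of CA1 over CA3 0.60 ± 0.24 (adjusted p = 0.18).

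Cck encodes cholecystokinin, the peptide of a class of basket cells, and had 12816 UMIs in all. By the mean of replicates it stood higher in CA1 and CA3 than in DG in the TE-permeabilized frozen sections. In FF-TE the CA1 replicates, at 823 to 1460 CPM, were all above the DG replicates, at 378 to 734 CPM. The CA3 replicates of FF-TE, at 654 to 1350 CPM, overlapped those of DG. In FixFrozen-TE the values were 913, 1327, 1321 and 1089 CPM in CA1, 1120.3, 1059, 1323 and 1174 CPM in CA3 and 507, 560.0, 631 and 642 CPM in DG. Every DG replicate was below every CA1 and CA3 replicate. In FF-HCl the means were 454 ± 55.6 CPM in CA1, 633 ± 120.0 in CA3 and 469 ± 124 in DG, and in Paraffin-TE 316 ± 223, 386 ± 218 and 322 ± 97.7 CPM, with overlap between CA1 and DG in both (SD, n = 4). Over the libraries Cck had a log2 fold change of 0.56 ± 0.17 in CA1 over DG (adjusted p = 0.012) and 0.58 ± 0.16 in CA3 over DG (adjusted p = 0.0083). Neither was called without the FF-TE libraries (0.40 and 0.57, adjusted p = 0.334 and 0.0998) or without the FixFrozen-TE libraries (0.40 and 0.46, adjusted p = 0.17 and 0.12). Of 4 excitatory neuron markers, Neurod6 was higher in CA1 and CA3 than in DG, at 1.08 and 1.41, Slc17a7 was higher in CA3 than in DG, at 0.79, and Neurod2 was lower in CA1 than in DG, at -0.51. The summed level of the 4 was 1067 to 3507 CPM in CA1, 1679 to 3762 in CA3 and 1112 to 4215 in DG. Their part in the level of Cck was not tested.

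Reln encodes reelin, which is released by Cajal-Retzius cells and by interneurons of the dendritic layers. Its highest values were in DG. In FF-TE it stood at 17.2, 18.1, 39.2 and 35.1 CPM in CA1, at 10.3, 26.1, 27.9 and 19.5 CPM in CA3 and at 52.9, 63.0, 48.7 and 30.6 CPM in DG. All DG replicates were above all CA3 replicates, and DG and CA1 overlapped. In FF-HCl the DG replicates ranged widely, with 19.9, 88.4, 81.2 and 8.37 CPM, and overlapped both other areas. FixFrozen-TE and Paraffin-TE held 30 and 17 UMIs of Reln in 12 replicates each. Over the libraries CA3 over DG was -1.0006 ± 0.26 (adjusted p = 0.0025) and CA1 over DG -0.68 ± 0.26 (adjusted p = 0.072). The former was not called without the FF-HCl libraries (-0.95, adjusted p = 0.10) or without the FF-TE libraries (-0.89, adjusted p = 0.21). Markers of Cajal-Retzius cells (Trp73, Lhx1, Lhx5, Ebf2, Ebf3, Ndnf) had a summed level of 0 to 49.8 CPM in CA1, 0 to 48.1 CPM in CA3 and 0 to 80.7 CPM in DG. Of these 6, 4 were tested. Against DG, Ndnf alone was called, and was lower in both CA1 and CA3, at -1.03 and -1.34. Trp73 was lower in CA1 than in CA3, at -2.50. Lhx5 was at 0 in 10 of the 12 libraries. The part of such cells in the level of Reln was not tested.

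Npy, the gene of neuropeptide Y, and Lhx6 showed no called difference between areas. The mean of Npy was 131 CPM in CA1, 141 CPM in CA3 and 141 CPM in DG (n = 16 replicates each), and CA1 over DG was 0.00 ± 0.18 on the log2 scale (adjusted p = 1.0). Lhx6 had 186 UMIs in all 48 replicates. By the mean of replicates it stood higher in CA1 than in DG in 4 of 4 conditions. There was no overlap in FF-HCl (8.20 to 15.7 against 2.54 to 6.20 CPM), on 27 and 8 UMIs. Nor was there overlap in Paraffin-TE (21.3 to 55.7 against 0 to 20.3 CPM), but on 7 and 8 UMIs. FixFrozen-TE held 2 and 4 UMIs of Lhx6, and with replicates pooled CA1 was lower there (4.75 against 5.05 CPM). Over the libraries CA1 over DG was 0.71 ± 0.38 (adjusted p = 0.28).

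Gad2 and Slc32a1 were not called between areas in any condition. In FF-TE the mean of Gad2 was 205 ± 49.2 CPM in CA1, 209.5 ± 30.9 in CA3 and 218 ± 15.7 in DG, and that of Slc32a1 173 ± 39.7, 185 ± 34.3 and 162 ± 41.4 CPM (SD, n = 4). In Paraffin-TE, on fewer UMIs, the means of Gad2 were 73.5 ± 84.4, 48.8 ± 68.5 and 92.1 ± 33.1 CPM, and those of Slc32a1 11.5 ± 13.8, 31.4 ± 18.7 and 28.4 ± 23.7 CPM in the same order. Gad2 in CA3 over DG of Paraffin-TE was at -1.19 ± 0.54 (adjusted p = 0.26). The replicates of the areas overlapped for both genes in all 4 conditions. Over the libraries the log2 fold changes of Gad2 were -0.15 ± 0.19, -0.28 ± 0.18 and 0.13 ± 0.19 in CA1 over DG, CA3 over DG and CA1 over CA3, and those of Slc32a1 -0.12 ± 0.19, 0.03 ± 0.19 and -0.16 ± 0.20. Gad1 was lower in CA3 than in DG in 4 of 4 conditions, with -0.66 ± 0.17 over the libraries (adjusted p = 0.0028). In FixFrozen-TE it stood at 536, 365, 460.4 and 553 CPM in CA1, at 336, 282, 258 and 417 CPM in CA3 and at 611, 456, 606 and 872 CPM in DG. All CA3 replicates were below all DG replicates there and in FF-HCl, whereas CA1 overlapped both areas in FixFrozen-TE.

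**Figure D2:**
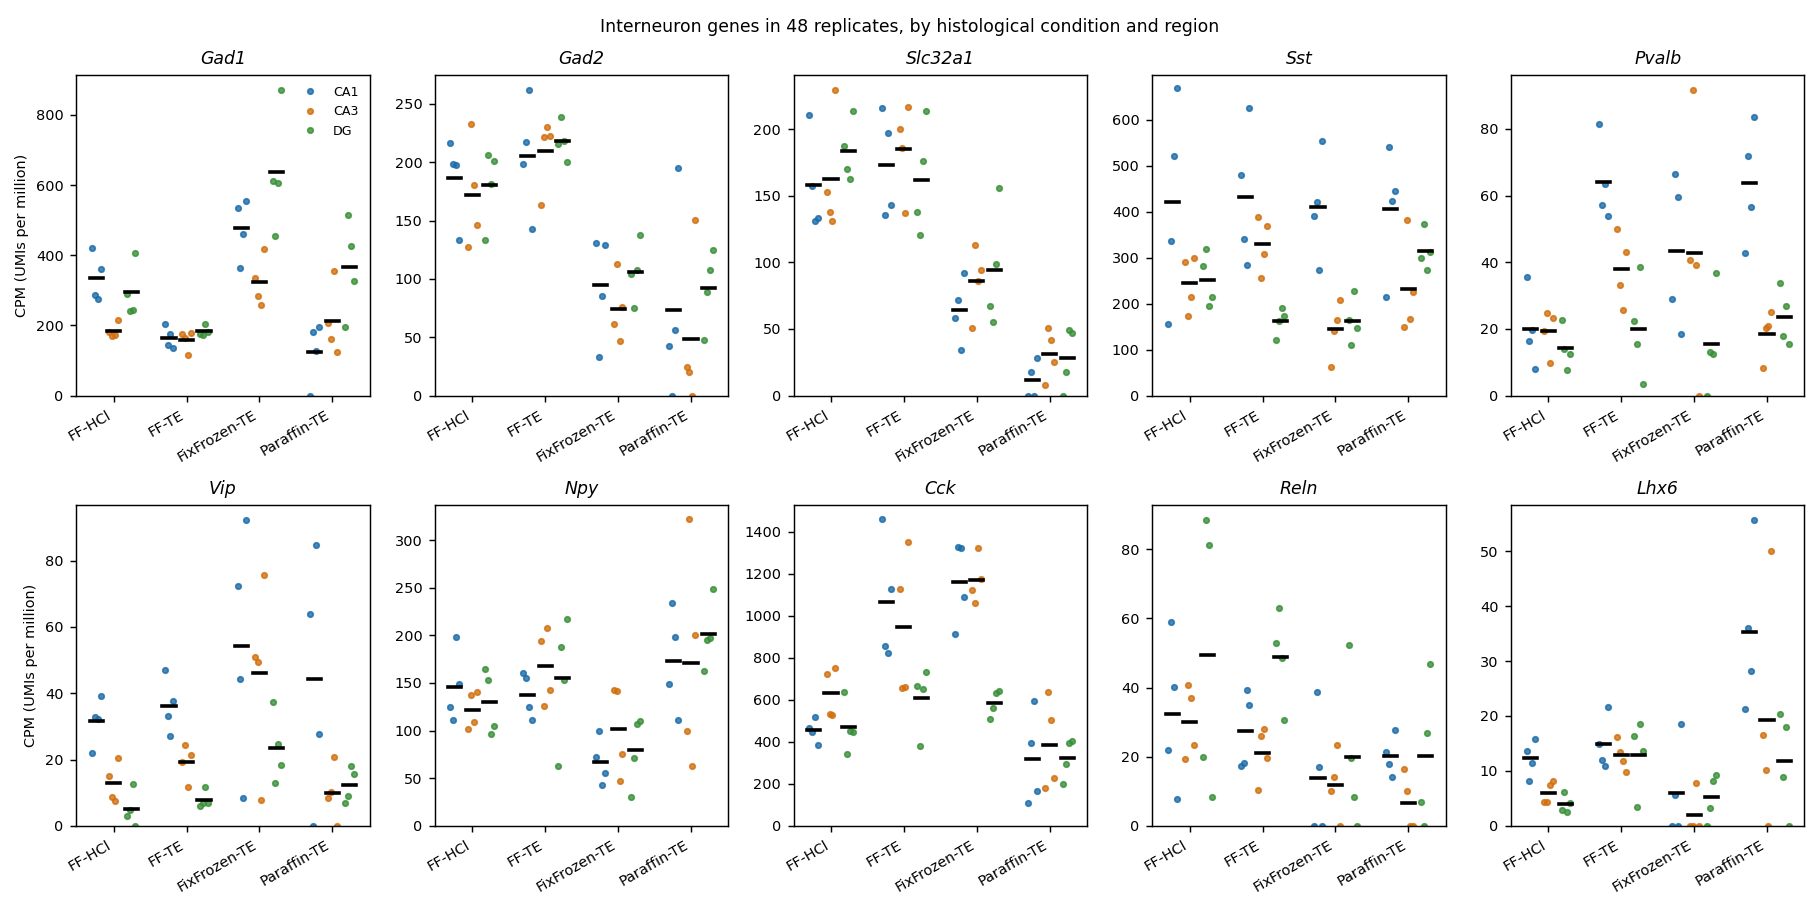
Levels of the 10 interneuron genes in 48 replicates, with 1 panel per gene. The vertical axis is CPM from 0, the horizontal axis gives the histological condition, dots are replicates coloured by area and black bars are means of 4 replicates; Sst, Vip and Pvalb stood higher in CA1 than in DG, whereas Gad1 in FixFrozen-TE reached 872 CPM in DG.

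Tested within each condition on the 8 replicates of a pair of areas, 22 of 116 tested combinations of member and comparison were called. The share of all genes called ran from 2.36% to 17.0% over these comparisons and is given with each below. In FF-HCl, Vip was the only member called between CA1 and DG, at 2.12 ± 0.46 on the log2 scale (adjusted p = 0.00070), with 17.0% of all genes called. Gad1 alone was called between CA3 and DG, at -0.62 ± 0.17 (adjusted p = 0.019), with 8.99% of all genes called. Between CA1 and CA3, 3 members were called where 9.13% of all genes were: Gad1 at 0.81 ± 0.17 (adjusted p = 0.0014) and Vip at 1.17 ± 0.34 (adjusted p = 0.027) were higher in CA1, and Cck at -0.51 ± 0.15 (adjusted p = 0.032) was lower. The Gad1 values behind this were 421, 285, 276 and 361 CPM in CA1, 181, 169, 172 and 215 CPM in CA3 and 289.5, 242, 242 and 406 CPM in DG. The CA3 replicates of FF-HCl were below all replicates of both other areas. With replicate numbers as a block, which paired CA3 and DG here, the calls between CA3 and DG were 3: Gad1, Cck at 0.46 (adjusted p = 0.00017) and Reln at -0.77 (adjusted p = 0.0043). Gad1 in CA3 over DG was not called without CA3 replicate 1 or 3 or DG replicate 1 or 4 (-0.60 to -0.45, adjusted p = 0.051 to 0.094). Vip in CA1 over CA3 was not called without replicate 2 or 3 of either area (0.99 to 1.14, adjusted p = 0.076 to 0.098) or with DESeq2 (1.21, adjusted p = 0.090). Cck was not called without any CA1 replicate or without CA3 replicate 1 or 4 (-0.55 to -0.42, adjusted p = 0.055 to 0.15).

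In FF-TE, 5 members were called between CA1 and DG, where 10.1% of all genes were. Sst (1.44 ± 0.20, adjusted p = 1.2e-06), Pvalb (1.595 ± 0.30, adjusted p = 0.00021), Vip (2.17 ± 0.37, adjusted p = 4.6e-05) and Cck (0.85 ± 0.18, adjusted p = 0.00084) were higher in CA1, and Reln (-0.90 ± 0.29, adjusted p = 0.035) was lower. Sst stood at 479, 340.4, 284 and 626 CPM in CA1, at 388, 256, 309 and 369 CPM in CA3 and at 119.9, 162, 189.6 and 173 CPM in DG. All DG replicates were below all CA1 and CA3 replicates, and CA1 and CA3 overlapped. Between CA3 and DG, 3 were called where 7.91% of all genes were: Sst (1.09 ± 0.18, adjusted p = 9.2e-05) and Cck (0.71 ± 0.21, adjusted p = 0.035) higher and Reln (-1.16 ± 0.28, adjusted p = 0.0073) lower in CA3. Between CA1 and CA3, Pvalb alone was called, higher in CA1 at 0.81 ± 0.23 (adjusted p = 0.042), where 4.40% of all genes were. The replicate numbers paired all areas of FF-TE, and with them as a block 5 members were called between CA3 and DG, adding Pvalb (0.78, adjusted p = 0.028) and Vip (1.23, adjusted p = 0.019), and 2 between CA1 and CA3, adding Vip (0.90, adjusted p = 0.0097). Reln in CA1 over DG was not called without CA1 replicate 1 or 2 or DG replicate 1, 2 or 3 (-0.94 to -0.70, adjusted p = 0.057 to 0.18) or with DESeq2 (-0.88, adjusted p = 0.16). Cck in CA3 over DG was not called without CA3 replicate 1 or 4 or DG replicate 1, 2 or 3 (0.45 to 0.77, adjusted p = 0.053 to 0.21) or with DESeq2 (0.68, adjusted p = 0.35). Reln in CA3 over DG was not called without DG replicate 2 (-1.03, adjusted p = 0.058), nor Pvalb in CA1 over CA3 without any CA1 replicate or without CA3 replicate 2 or 3 (0.65 to 0.86, adjusted p = 0.050 to 0.22) or with DESeq2 (0.79, adjusted p = 0.0997).

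In FixFrozen-TE, 9 members were tested, since Lhx6 had 7 UMIs in all 12 replicates. Between CA1 and DG, 3 were called where 8.14% of all genes were, and Sst (1.23 ± 0.23, adjusted p = 3.4e-06), Cck (0.95 ± 0.17, adjusted p = 1.7e-06) and Pvalb (1.75 ± 0.59, adjusted p = 0.040) were higher in CA1. Between CA3 and DG, 3 were called where 9.27% of all genes were: Cck (1.00 ± 0.16, adjusted p = 1.2e-07) and Pvalb (1.81 ± 0.59, adjusted p = 0.027) higher and Gad1 (-1.0009 ± 0.19, adjusted p = 1.6e-05) lower in CA3. Between CA1 and CA3, Sst alone was called, at 1.48 ± 0.26 (adjusted p = 1.4e-06), where 7.20% of all genes were. The Pvalb calls rest on 22 UMIs in CA1, 22 in CA3 and 11 in DG, and the replicates overlapped. Pvalb in CA1 over DG was not called without CA1 replicate 2 or 3 or DG replicate 1, 2 or 3 (1.47 to 1.72, adjusted p = 0.096 to 0.29), with DESeq2 (1.77, adjusted p = 0.12) or without a filter on low counts (1.76, adjusted p = 0.072). In CA3 over DG it was not called without CA3 replicate 2, where it fell to 1.14 (adjusted p = 0.44), or without DG replicate 1, 2 or 3 (1.53 to 1.76, adjusted p = 0.070 to 0.087), nor with DESeq2 (1.80, adjusted p = 0.097) or without the filter (1.78, adjusted p = 0.057).

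In Paraffin-TE, Gad1 was the only member called. Between CA1 and DG it was at -1.59 ± 0.32 (adjusted p = 0.00012), where 3.29% of all genes were called. Its values were 0, 180.0, 127 and 195 CPM in CA1, 207, 161, 356 and 125 CPM in CA3 and 197, 516, 426 and 327 CPM in DG, from 26, 63 and 203 UMIs. Each CA1 replicate was below each DG replicate, by a narrow margin for the closest pair, 195 and 197 CPM. Of the 10 members 0 were called between CA3 and DG (3.21% of all genes), and of the 9 tested between CA1 and CA3 0 were called (2.36% of all genes). At an unadjusted p under 0.05 in edgeR there were 2 members in the former and 3 in the latter comparison, and DESeq2 called 0 in both. Sst stood at 213, 539.9, 424 and 445 CPM in CA1, at 149, 383, 167 and 226 CPM in CA3 and at 298, 373, 273 and 311 CPM in DG. The 3 areas overlapped, and CA1 over DG was 0.35 ± 0.26 (adjusted p = 0.60).

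The area difference of 2 members differed between the conditions. The test of all area by condition terms on 48 replicates called Gad1 (adjusted p = 0.0017) and Sst (adjusted p = 0.0032), where 2.69% of 18884 genes were called. For Gad1, CA1 over DG ran from 0.21 ± 0.19 in FF-HCl and -0.11 ± 0.17 in FF-TE to -0.49 ± 0.19 in FixFrozen-TE and -1.59 ± 0.32 in Paraffin-TE. For Sst, CA3 over DG was 1.09 ± 0.18 in FF-TE but -0.03 ± 0.19 in FF-HCl, -0.22 ± 0.27 in FixFrozen-TE and -0.35 ± 0.29 in Paraffin-TE. Of the other 8 members, Cck had the lowest adjusted p, 0.11. DESeq2 called Gad1 (adjusted p = 0.0090) but not Sst (adjusted p = 0.21), as did edgeR with the size factors of DESeq2 (0.021 and 0.050), and with thinned counts 0 members were called (0.52 for Gad1 and 0.57 for Sst). The conditions differ in library and in depth as well as in histology, and these cannot be told apart.

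Between FF-TE and FixFrozen-TE, Gad1 and Gad2, which encode enzymes of the same reaction, moved in opposite directions. In FF-TE, Gad1 had a lowest, median and highest level of 117, 175 and 205 CPM over 12 replicates, and in FixFrozen-TE of 258, 458 and 872 CPM. Gad2 had 143, 218 and 262 CPM in FF-TE and 33.2, 94.8 and 138 CPM in FixFrozen-TE. The 2 conditions did not overlap for either gene. With area as a covariate, the log2 fold change of FixFrozen-TE over FF-TE was 1.37 ± 0.12 for Gad1 (adjusted p = 6.3e-17) and -1.34 ± 0.16 for Gad2 (adjusted p = 3.9e-12; edgeR, n = 12 replicates each). Slc32a1 was also lower, from 121, 181 and 217 CPM to 34.1, 79.0 and 156 CPM, at -1.15 ± 0.17 (adjusted p = 7.3e-09). In all, 2 members were higher and 6 lower in FixFrozen-TE, where 15.8% of all genes were higher and 32.9% lower. The median of all genes lay at -0.39 in this comparison, and relative to it Gad1 was at 1.76, Vip at 1.16, Gad2 at -0.95 and Slc32a1 at -0.77. Vip was higher at 0.77 ± 0.28 (adjusted p = 0.018), and Npy (-0.90 ± 0.18), Reln (-0.96 ± 0.32), Lhx6 (-1.61 ± 0.49) and Sst (-0.46 ± 0.15) were lower. Relative to the median of all genes Sst was at -0.07, and in DG alone it was at 0.01. Vip was not called in CA1 or in CA3 alone, Reln likewise, Sst not in CA1 or DG alone and Lhx6 in no single area. With all replicates thinned to 35932 UMIs, Gad1, Gad2 and 1 other member, Cck, were called. Fixed replicates had fewer UMIs, and each condition was 3 libraries, so that library and condition cannot be told apart. Same-numbered replicates of the areas deviated together in FF-TE, and on average more weakly in FixFrozen-TE. The 12 replicates of a condition are thus not fully independent. These p-values may be too small, here and in the other comparisons of conditions. Markers of other cells moved too: 4 of 4 oligodendrocyte, 3 of 5 astrocyte, 4 of 5 endothelium and 3 of 3 tested erythrocyte genes were lower in FixFrozen-TE, at medians of -0.81, -1.11, -1.74 and -4.23. The summed level of the astrocyte genes was 303 to 915 CPM against 1892 to 4558 CPM in FF-TE, and that of the endothelium genes 18.9 to 179 against 213 to 354 CPM. Their part in the members' values was not tested.

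**Figure D3:**
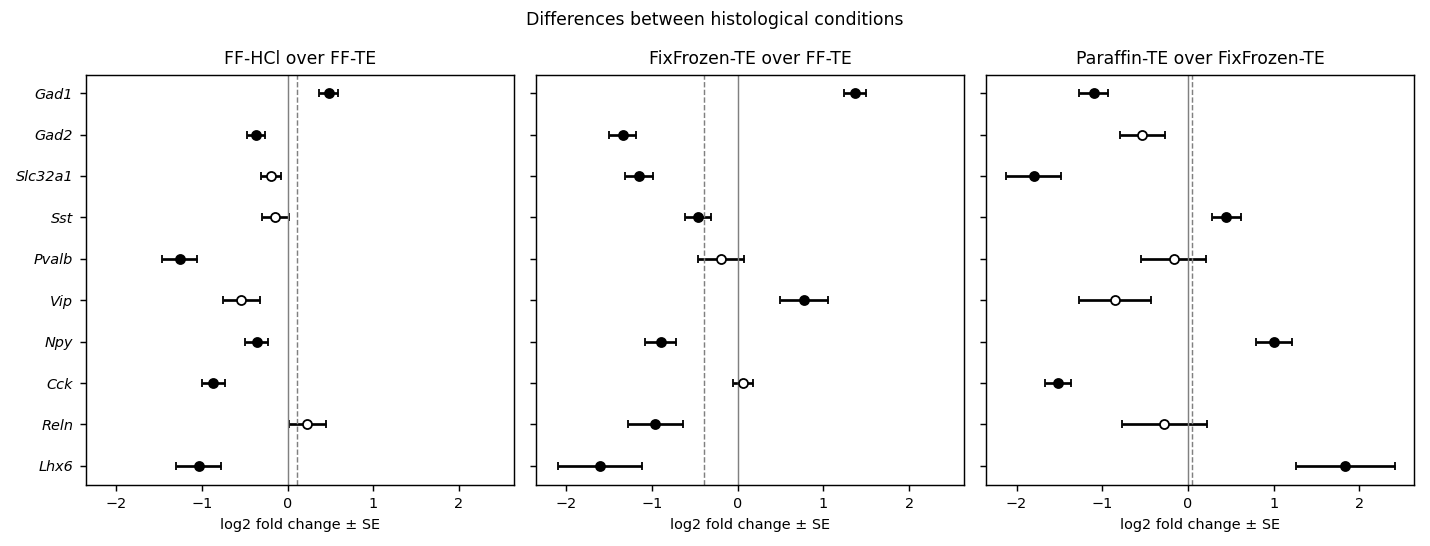
Differences between histological conditions for the 10 interneuron genes, with area as a covariate. The horizontal axis is the log2 fold change of the first condition over the second, bars are ± SE, filled points passed the test and the dashed line is the median of all genes; in FixFrozen-TE over FF-TE, Gad1 stands at 1.37 and Gad2 at -1.34.

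The ratio of Gad1 to Gad2 UMIs within a replicate was looked at after the values above were seen, and is given as a description with no test. Over 12 replicates it was 1937 to 1428 UMIs in FF-HCl, 1317 to 1685 in FF-TE, 779 to 142 in FixFrozen-TE and 292 to 73 in Paraffin-TE, which gives ratios of 1.36, 0.782, 5.49 and 4. Gad1 had more UMIs than Gad2 in 10 of 12 replicates in FF-HCl, in 2 of 12 in FF-TE, in 12 of 12 in FixFrozen-TE and in 9 of 12 in Paraffin-TE. The mean log2 ratio, with 0.5 added to each count, was 0.56 ± 0.52 in FF-HCl, -0.32 ± 0.31 in FF-TE, 2.36 ± 0.48 in FixFrozen-TE and 1.78 ± 2.03 in Paraffin-TE (SD, n = 12). The ranges of FixFrozen-TE, 1.30 to 3.35, and FF-TE, -0.98 to 0.10, did not overlap. In Paraffin-TE the range was -2.32 to 5.13, where Gad2 counts were between 0 and 24 UMIs per replicate and the added 0.5 weighs on the ratio. The ratio compares changes of the 2 genes and is not a ratio of their transcript numbers, since the share of molecules read can differ between genes.

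**Figure D4:**
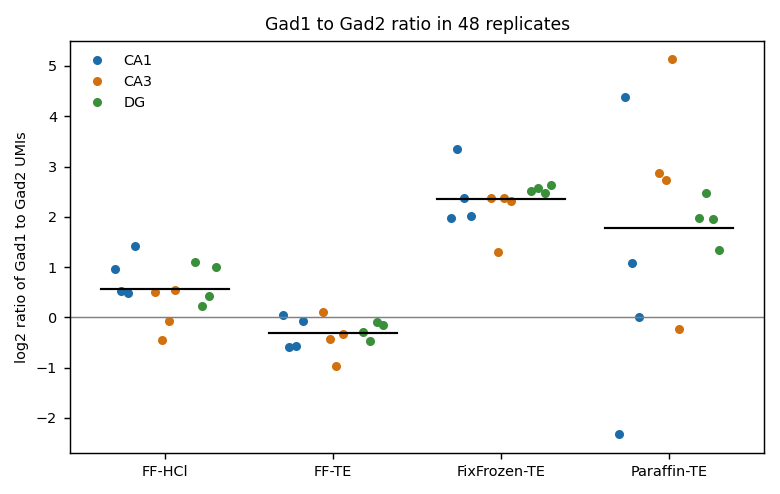
Ratio of Gad1 to Gad2 UMIs in 48 replicates. The vertical axis is the log2 ratio with 0.5 added to each count, dots are replicates coloured by area and bars are means of 12 replicates; FixFrozen-TE lies between 1.30 and 3.35, above all FF-TE replicates.

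Permeabilization of fresh-frozen sections with HCl instead of TE went with higher Gad1 and lower levels of 5 members. Cck had a lowest, median and highest level of 340, 493 and 749 CPM in FF-HCl and of 378, 778 and 1459.6 CPM in FF-TE, and Pvalb of 7.62, 17.8 and 35.6 CPM against 3.40, 40.8 and 81.5 CPM. The conditions overlapped for both genes. The log2 fold changes of FF-HCl over FF-TE were -0.87 ± 0.14 for Cck (adjusted p = 1.1e-06), -1.26 ± 0.21 for Pvalb (adjusted p = 2.7e-06), -1.04 ± 0.26 for Lhx6 (adjusted p = 0.0017), -0.36 ± 0.11 for Gad2 (adjusted p = 0.0058) and -0.36 ± 0.13 for Npy (adjusted p = 0.034). Gad1 was at 0.48 ± 0.11 (adjusted p = 0.00069), and in CA3 alone at 0.10 (adjusted p = 0.77). These 1 higher and 5 lower members stand beside 16.2% and 14.3% of all genes, and the median of all genes lay at 0.10. Relative to it Gad1 was at 0.38 and Cck at -0.97. Thinned to the smallest total, Cck alone was called. Cck and Pvalb were not called in DG alone, Lhx6 not in CA1 alone and Gad2 in no single area. Npy was called in CA3 alone but not in the other areas, nor with DESeq2 (-0.32, adjusted p = 0.093). Of markers of other cells, 3 of 4 oligodendrocyte and 4 of 5 endothelium genes were higher in FF-HCl, at medians of 0.41 and 0.56 and with summed levels of 2034.5 to 8715 against 1254 to 5699 CPM and 259 to 525 against 213 to 354 CPM, and 2 of 3 tested erythrocyte genes were lower; their part in the members' values was not tested. Slc32a1, Sst, Vip and Reln did not pass the test, at -0.19 ± 0.12, -0.14 ± 0.16, -0.54 ± 0.22 and 0.23 ± 0.21.

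Paraffin embedding, compared with frozen sections of fixed tissue, went with lower Cck, Slc32a1 and Gad1 and higher Npy, Lhx6 and Sst. Cck had 507, 1074 and 1327 CPM as lowest, median and highest level in FixFrozen-TE and 107, 344 and 635 CPM in Paraffin-TE, and the conditions did not overlap within any of the 3 areas. Its log2 fold change was -1.51 ± 0.15 (adjusted p = 1.2e-18). Slc32a1 was at -1.80 ± 0.33 (adjusted p = 1.2e-06), with 27 UMIs in Paraffin-TE and 130 in FixFrozen-TE, and Gad1 at -1.10 ± 0.17 (adjusted p = 5.3e-09). Npy was at 1.01 ± 0.21 (adjusted p = 2.9e-05), with 62.7, 196 and 322 CPM in Paraffin-TE against 29.8, 74.1 and 143 CPM in FixFrozen-TE. Lhx6 was at 1.84 ± 0.58 (adjusted p = 0.0091) on 20 and 7 UMIs, and Sst at 0.45 ± 0.17 (adjusted p = 0.032). These 3 higher and 3 lower members stand beside 13.7% and 14.4% of all genes, with a median of all genes of 0.05. In CA3 alone Gad1 (-0.60), Slc32a1 (-1.51), Npy (0.75) and Sst (0.75) were not called, and Sst was at 0.00 in CA1 alone. Sst was also not called without a filter on low counts (adjusted p = 0.057) or with thinned counts (0.55, adjusted p = 0.066), and Lhx6 neither with thinned counts (1.24, adjusted p = 0.22) nor in DG alone (1.28, adjusted p = 0.36). All 4 oligodendrocyte markers were higher in Paraffin-TE, at a median of 1.69 and with 1587 to 8025 CPM against 568 to 5485 CPM in FixFrozen-TE, and their part in these values was not tested.

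Further genes of interneurons and of their peptides' receptors were counted in the same way over the libraries. Of 13 interneuron transcription factors, all tested, Sp9 (1.83 ± 0.55) and Satb1 (0.87 ± 0.18) were higher in CA1 than in DG, and Satb1 was also higher in CA1 than in CA3 (0.67 ± 0.18). Between CA3 and DG edgeR called 0 of the 13, with 2 at an unadjusted p under 0.05. Of 23 other interneuron genes, 4 were higher and 5 lower in CA1 than in DG, 4 higher and 5 lower in CA3 than in DG, and 3 higher and 4 lower in CA1 than in CA3. Over all genes these shares were 4.64% and 5.52%, 3.88% and 4.30%, and 2.05% and 2.61%. Crhbp, which binds corticotropin-releasing hormone and is transcribed in somatostatin cells, was higher in CA1 than in DG at 2.14 ± 0.24 (adjusted p = 4.8e-16), and Cplx3, a complexin of neurogliaform cells, at 3.44 ± 0.51 (adjusted p = 1.1e-09). Calb2, the calretinin gene, was lower in CA1 than in DG at -4.23 ± 0.31 (adjusted p = 6.9e-39) and in CA3 than in DG at -1.68 ± 0.23 (adjusted p = 2.4e-11). Calretinin is also made by mossy cells of the mouse DG. The 4 mossy cell markers (Calb2, Drd2, Nmb, Csf2rb2) had a summed level of 41.9 to 156 CPM in DG, 0 to 75.2 CPM in CA3 and 0 to 42.4 CPM in CA1, with Drd2 at 0 in 8 of 12 libraries. Calb2 is itself part of this sum, so the sum gives no reading apart from Calb2. Of the 4 genes, 3 were tested and only Calb2 was called. The part of mossy cells in the level of Calb2 was not tested. Kit was higher in CA3 than in DG, at 1.80 ± 0.25 (adjusted p = 2.1e-10).

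Of 16 receptors of the peptides and of reelin, 13 were tested. In CA1 over DG 0 were higher and 5 lower, in CA3 over DG 1 was higher and 6 lower, and in CA1 over CA3 1 was higher and 1 lower, beside the shares of all genes just given. Npy2r, a receptor of neuropeptide Y on nerve terminals, was lower in CA1 than in DG (-2.55 ± 0.27, adjusted p = 6.0e-19) and than in CA3 (-3.01 ± 0.26, adjusted p = 5.1e-27). Npy5r was lower in CA1 and in CA3 than in DG, at -1.89 ± 0.34 and -2.39 ± 0.34, and Npy1r at -0.98 ± 0.26 and -1.44 ± 0.26. While Npy itself did not pass the test between areas, 3 of its receptor genes thus differed. Between conditions, 0 of 12 tested transcription factors were higher and 9 lower in FixFrozen-TE than in FF-TE, against 2 and 7 of 23 other interneuron genes and 0 and 4 of 13 receptors, where 15.8% of all genes were higher and 32.9% lower. In FF-HCl over FF-TE the counts were 0 higher and 4 lower, 1 and 6, and 2 and 4, and in Paraffin-TE over FixFrozen-TE 3 and 0, 0 and 3, and 0 and 1, in the same order of the lists, beside 16.2% and 14.3% and beside 13.7% and 14.4% of all genes. Of markers of other cells, edgeR called 0 of 5 microglia and 0 of 5 endothelium genes in the 3 comparisons of areas, with 0 and 1 at an unadjusted p under 0.05, while of 5 choroid plexus genes Ttr was lower in CA1 than in DG and than in CA3, at -2.20 and -1.77, and Kl was higher in CA1 than in CA3, at 1.78. All 3 tested erythrocyte genes were lower in CA1 than in DG, and Hbb-bs was lower in CA3 than in DG, at -0.98.

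For each member, the 3 genes with the most similar pattern were found among 11227 genes by Pearson's r of log2(CPM + 10) over the 12 libraries after the mean of each condition was subtracted. The r ranged from 0.88 to 0.98, and with so many genes and 12 points high values occur easily. Among the nearest were Gpkow for Gad1 (r = 0.97), Tubgcp3 for Gad2 (0.97), Mkks for Slc32a1 (0.97), Bcl9 for Pvalb (0.96), Ephb3 for Vip (0.96), Pot1a for Npy (0.90), Klk8 for Cck (0.95) and Rassf2 for Lhx6 (0.98). Reln was nearest to Gm25857 (0.96). No member was among the 3 nearest of another. Among the members themselves, the highest r was between Pvalb and Vip (0.91) and the lowest between Slc32a1 and Lhx6 (-0.78), as a description over 12 libraries that differ in depth.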

How the data were processed

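The authors amplified light-exposed cDNA, read it with unique molecular identifiers (UMIs) and deposited a table of UMI counts per gene and replicate; the submitters' processing notes name UMI-tools 1.0.0, HISAT2 2.1.0, featureCounts 1.6.4 and DESeq2 1.20.0. The annotation release behind the table is not given in the sources used here. From the counts, CPM was computed on the total of each replicate, and edgeR 4.0.16 (R 4.3.3) was run with TMM normalization, quasi-likelihood tests and Benjamini-Hochberg adjustment over all genes with at least 10 UMIs in the fitted samples; an adjusted p under 0.05 was a call. Areas were compared within each condition (4 replicates against 4) and over UMIs summed per library with condition as a covariate, conditions were compared in steps with area as a covariate, and area by condition terms were tested on all 48 replicates. The paper describes the 4 replicates as biological, but which mouse gave which replicate is not given in the sources used here. In the tests on replicates, p-values measure the spread between these replicates. In the tests on UMIs summed per library they measure the spread between libraries, 4 per area. The SE given with a log2 fold change was calculated from that fold change and the F value of its edgeR test. It is not an estimate separate from the p-value. Same-numbered replicates deviated together (every correlation over 0.1 across genes) in the 3 comparisons of FF-TE, at 0.180 to 0.338, and in CA3 against DG of FF-HCl, at 0.228 to 0.433, and there the number was taken to pair the samples. Alternatives were DESeq2 1.42.0, its size factors in edgeR, no filter, counts thinned to 35932 UMIs, the replicate block, single areas, and leaving out replicates or the libraries of a condition. The members and the other gene lists were chosen with earlier results of these data known. Named genes are all members and, of each other list, at most the 4 called genes with the smallest adjusted p over the libraries; markers of areas and of other cell types are named where a result turns on them. Some genes of the marker lists and of the similar patterns are not reported here, and the lists were summed and counted without them.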

Additional observations from a re-analysis of the deposited data

Results flagged for a closer look

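In 120 groups of 4 replicates (10 genes in 12 libraries), 4 held a replicate apart from the others by Dixon's criterion, which chance flags in about 1 of 20 groups. Gad2 stood at 163.6 CPM (111 UMIs) in replicate 1 of CA3 in FF-TE, below the 221 to 231 CPM of the other replicates. In replicate 4 of CA3 in Paraffin-TE it stood at 150.4 CPM, from 6 UMIs, above 0 to 24.8 CPM. Vip stood at 11.7 CPM (7 UMIs) in replicate 3 of DG in FF-TE, above 6.10 to 6.82 CPM. Lhx6 stood at 7.83 CPM in replicate 3 of CA3 in FixFrozen-TE, from 1 UMI, with the other replicates at 0.

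The differences between areas were unequal between the conditions for Gad1 (adjusted p = 0.0017, edgeR test of the area by condition terms) and for Sst (adjusted p = 0.0032).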

How the results depend on the processing

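For 51 called log2 fold changes, alternatives gave 321 tested values, of which 245 kept their direction and call, 74 lost the call and 2 changed sign. Alternatives in which a gene fell below the filter on low counts gave no value, and are in neither the 321 nor the 74. This concerned some results of Vip, Pvalb and Lhx6. Vip in CA1 over DG of FF-HCl thus had 4 tested alternatives and 0 lost calls, although thinning left it without a call. The 74 therefore understates the loss of calls for these low-count genes. Leaving out single replicates gave 176 values, of which 136 kept the call and 40 lost it. The values that changed sign were Npy in FF-HCl over FF-TE with thinned counts (0.071) and Sst in FixFrozen-TE over FF-TE in DG alone (0.013), and the cause was not tested.

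Thinning every replicate to 35932 UMIs, which leaves fewer counts by construction, lowered the calls within conditions from 22 to 7 (also 7 with the replicate block), those between conditions from 20 to 8 and those of the area by condition terms from 2 to 0. By comparison it left 0 calls, with and without the block, in all 3 of FF-HCl and in CA3 over DG and CA1 over CA3 of FF-TE, 2 in CA1 over DG of FF-TE and 1 in CA3 over DG of FixFrozen-TE, and between conditions 1 in FF-HCl over FF-TE and 3 in FixFrozen-TE over FF-TE. DESeq2 and its size factors each gave 1 call for the area by condition terms, and DESeq2 gave 0 in CA1 over CA3 of FF-TE and 1 in CA1 over CA3 over the libraries. Without a filter, FF-HCl gave 2 calls in CA1 over DG and 3 in CA3 over DG.

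The replicate block gave 3 calls in CA3 over DG of FF-HCl, and 5 in CA3 over DG and 2 in CA1 over CA3 of FF-TE, where numbers paired the replicates; in CA1 over DG of FF-TE it changed no call. Where the rule for pairing was not met, the block gave 2 calls in CA1 over DG of FF-HCl and 2 in CA1 over CA3 of FixFrozen-TE. The mean correlation of same-numbered replicates was still above 0 in these 8 comparisons. In the fixed conditions the means were 0.107 to 0.172 for the same number and -0.0571 to -0.0343 for other numbers. Deviations were taken from the mean of the 4 replicates, so a positive mean for the same number makes the other negative by construction. The values for other numbers are therefore not a separate baseline. Every replicate correlated best with its own number in 1 of the 8, CA1 and DG of Paraffin-TE. Independence of these replicates is therefore not established.

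With fewer samples, single areas gave 11 (CA1), 11 (CA3) and 13 (DG) calls between conditions against 20: in FF-HCl over FF-TE 3 in CA1 and 2 in DG, in FixFrozen-TE over FF-TE 4 in CA1 and 5 in CA3, and in Paraffin-TE over FixFrozen-TE 1 in CA3. Over the libraries, 9 calls became 5 without the FF-TE libraries. CA3 over DG had 1 call without FF-TE and 5 without Paraffin-TE, and CA1 over CA3 had 1 without FF-HCl, 1 without FF-TE and 1 without FixFrozen-TE; for the gain without Paraffin-TE the cause was not tested.

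Leaving out 1 replicate at a time gave 1 to 2 calls in CA1 over DG, 0 to 1 in CA3 over DG and 1 to 3 in CA1 over CA3 of FF-HCl, 1 to 4 in CA3 over DG and 0 to 1 in CA1 over CA3 of FF-TE, and 0 to 1 in CA3 over DG of Paraffin-TE. Low counts limit Lhx6, Reln, Vip and Pvalb in the fixed conditions, where a count of 0 allows up to 83.5 CPM.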
